A study of Mus musculus with 6 samples.

Results

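Open chromatin was examined at 9 mouse genes for surface receptors with which hematopoietic stem cells hold on to, leave and return to the bone marrow: the chemokine receptor Cxcr4, the sphingosine-1-phosphate receptor S1pr1, the integrin subunits Itga4, Itga5, Itga6, Itga9 and Itgb1, the hyaluronan receptor Cd44 and the selectin ligand Selplg. The genes were taken as a functional group, not for their signal. Peaks of all 6 libraries that overlapped by at least 1 bp were merged, and every merged region inside one of these genes or within 50 kb of its mm10 span was kept, which gave 166 of 82993 regions. The libraries were made by ATAC-seq, in which a transposase cuts accessible DNA, from about 5000 sorted CD48-CD150+LSK cells each, a bone marrow population enriched for stem cells. All donors were wild-type C57BL/6J mice; 3 libraries came from mice injected intraperitoneally with tunicamycin at 2 mg/kg and 3 from mice injected with DMSO, the solvent control. Tunicamycin blocks N-linked glycosylation and causes endoplasmic reticulum stress. The labels give neither the age of the mice nor the time after injection, and they do not say whether the 3 libraries of a group came from separate animals, so p-values measure only the spread between libraries.

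Stem cells are kept in the marrow by CXCR4, which senses the chemokine CXCL12 made by stromal cells, and by integrins that bind fibronectin, laminin and VCAM1 in the niche. Each integrin is a pair of an alpha and a beta chain, and the beta chain encoded by Itgb1 can pair with each of the 4 alpha chains studied here. CD44 binds hyaluronan, PSGL-1 (the product of Selplg) lets cells roll on selectins of the vessel wall during homing, and S1PR1 guides cells out of tissue towards sphingosine-1-phosphate in blood and lymph.

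The sequence just before the gene start is printed for 5 of the loci, because the region over the start was called in all 6 libraries at Cxcr4, Itga4, Itgb1 and Cd44 and in only 2 libraries at Itga5. The 250 bases before each start were taken from RefSeq on build GRCm38.p6, which 6 of the 9 genes matched. They lie at chr1:128592300-128592549 on the minus strand for Cxcr4, chr2:79255176-79255425 on the plus strand for Itga4, chr8:128685404-128685653 on the plus strand for Itgb1, chr2:102901666-102901915 on the minus strand for Cd44 and chr15:103366792-103367041 on the minus strand for Itga5. Each is written 5′ to 3′ along the gene and ends at the base before the start, and capitals mark matches, on either strand, to any of the 9 motifs named after the sequences.
Cxcr4: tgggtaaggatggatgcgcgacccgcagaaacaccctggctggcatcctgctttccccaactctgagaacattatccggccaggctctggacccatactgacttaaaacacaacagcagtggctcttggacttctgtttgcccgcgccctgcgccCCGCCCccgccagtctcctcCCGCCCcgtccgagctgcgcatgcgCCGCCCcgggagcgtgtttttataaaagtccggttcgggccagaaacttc
Itga4: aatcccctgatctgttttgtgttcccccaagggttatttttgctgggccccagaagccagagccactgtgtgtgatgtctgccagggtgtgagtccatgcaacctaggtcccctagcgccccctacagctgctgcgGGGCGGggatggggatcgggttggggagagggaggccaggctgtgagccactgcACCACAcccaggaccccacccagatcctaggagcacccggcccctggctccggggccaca
Itgb1: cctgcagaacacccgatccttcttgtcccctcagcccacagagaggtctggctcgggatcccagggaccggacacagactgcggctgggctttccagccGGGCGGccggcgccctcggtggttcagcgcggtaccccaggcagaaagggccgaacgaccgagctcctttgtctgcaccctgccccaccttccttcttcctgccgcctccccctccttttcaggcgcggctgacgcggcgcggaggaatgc
Cd44: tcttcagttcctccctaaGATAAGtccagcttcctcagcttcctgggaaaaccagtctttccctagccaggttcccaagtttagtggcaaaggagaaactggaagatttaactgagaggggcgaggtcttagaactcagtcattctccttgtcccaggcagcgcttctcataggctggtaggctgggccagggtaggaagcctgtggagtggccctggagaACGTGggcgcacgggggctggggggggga
Itga5: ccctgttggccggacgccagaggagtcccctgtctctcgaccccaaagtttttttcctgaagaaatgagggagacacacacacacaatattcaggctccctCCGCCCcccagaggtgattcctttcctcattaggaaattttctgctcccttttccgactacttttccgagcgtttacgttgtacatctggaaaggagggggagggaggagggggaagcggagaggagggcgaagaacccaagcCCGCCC
The motifs searched were the GC box (GGGCGG), the ETS motif (CCGGAAG), the RUNX motif (TGTGGT), the GATA motif (GATAAG), the AP-1 motif (TGANTCA), the CRE half-site (TGACGT), the hypoxia element core (ACGTG), the CCAAT box (CCAAT) and the ATF4 element (TGATGNAAN). No match overlapped another in the sequences shown. Cxcr4 carried 3 GC boxes, whose first bases lay at -95, -75 and -50 from the start, Itga5 carried 2, and Itga4 and Itgb1 carried 1 each, while 32.7% of all 32851 RefSeq promoters held at least 1. Itga4 also held a RUNX match (14.05% of promoters), and Cd44 held a GATA match (6.55%) and the hypoxia core (16.6%). The other 5 motifs had no match at the 5 starts. They occur in 6.91% (ETS), 6.75% (AP-1), 6.47% (CRE half-site), 33.8% (CCAAT) and 3.44% (ATF4) of promoters. These matches describe letters, not bound sites. The printed sequences of Itgb1, Cxcr4, Itga5, Itga4 and Cd44 held 21, 19, 11, 6 and 5 CpG, against a median of 6 over all promoters. In the same order their GC content was 68%, 61.2%, 55.6%, 64% and 56.4%, against a median of 52.4%.

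The libraries differed in how much was called in them, and the DMSO libraries lay at both extremes. The tunicamycin libraries 1, 2 and 3 held 44952, 56865 and 47789 peaks, and the DMSO libraries 1, 2 and 3 held 62478, 38217 and 28501. Read depth is unknown from peak lists, so no call at a site is not evidence that it was closed, and in bulk cells fewer open cells and less signal per cell cannot be told apart. Of 10 stem cell marker genes, 6 had a region called in all 6 libraries inside or within 1 kb, Gata2, Hlf and Kit among them. Slamf1, which encodes the CD150 used in the sort, had no such region called in more than 2 libraries, and Ly6a, which encodes Sca-1, had none called in any. Such a region was present at 4 of 4 megakaryocyte, 2 of 5 erythroid, 1 of 6 neutrophil and monocyte, 2 of 6 lymphoid, and 2 of 5 stromal and endothelial markers, against 54.4% of 21887 protein-coding genes, and the part of other cell types in the results was not tested.

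Most of the chromatin called open at the adhesion and homing loci was called in both groups. The tunicamycin libraries 1, 2 and 3 had calls in 96, 115 and 99 of the 166 regions, and the DMSO libraries 1, 2 and 3 in 132, 82 and 59. The tunicamycin counts were close together and lay inside the range of the DMSO counts. The means were 103 ± 10.2 regions after tunicamycin and 91.0 ± 37.3 after DMSO (SD, n = 3 each), a difference of 12.3 that was smaller than the DMSO spread. Without DMSO 3 the difference was -3.67, and without DMSO 1 it was 33.8. Of the 129 member regions called in at least 2 libraries, tunicamycin libraries called 75.7% ± 5.04 and DMSO libraries 65.4% ± 24.6 (SD, n = 3 each). Over all regions of the genome called in at least 2 libraries the shares were 79.1% ± 6.78 and 66.1% ± 22.9.

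**Figure D1:**
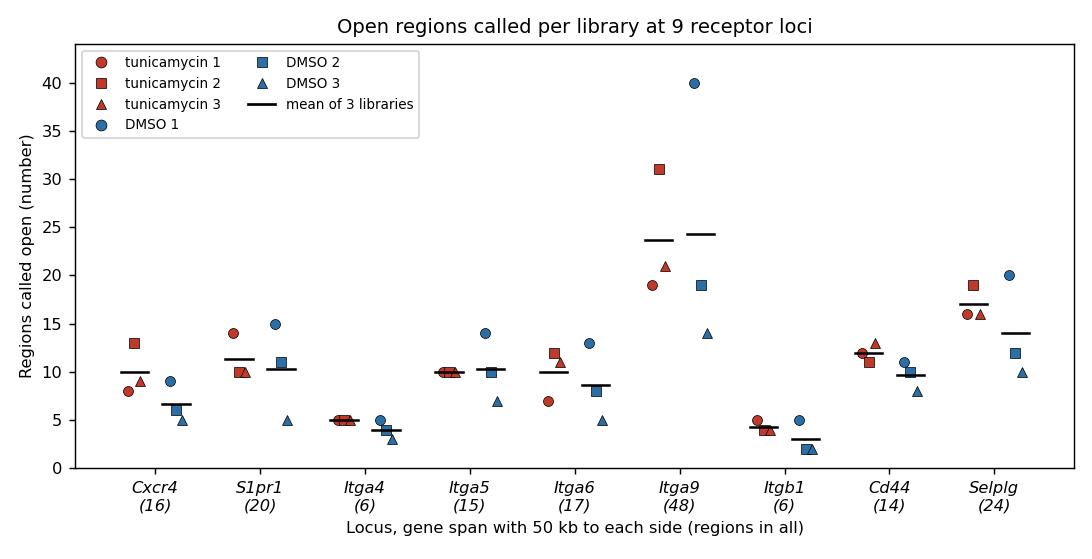
Number of merged regions called by each library at each of the 9 loci (vertical axis, count of regions), tunicamycin libraries left of DMSO libraries, with bars at the means. DMSO 1 has most calls at Itga9, with 40 of 48, and the group ranges overlap or touch at all 9 loci.

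All 6 libraries called 44 of the 166 regions, or 26.5%, against 25.1% of all merged regions. A single library called 37 regions, or 22.3%, against 32.4%, and 14 of these 37 came from DMSO 1. All 3 tunicamycin libraries called 71 regions (42.8%) and all 3 DMSO libraries 49 (29.5%), against 40.2% and 26.2% of all merged regions. Regions called by the 3 tunicamycin libraries and, among DMSO libraries, by DMSO 1 alone numbered 9, or 5.42%, against 4.39%. These 9 lay at Selplg, S1pr1, Itga4, Itga5, Itga9 and Cd44, and the library that shared them was the one with the longest peak list.

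Of the 12 regions within 1 kb of a gene end, 8 were called in all 6 libraries (66.7%), against 58.5% when the same is counted over every protein-coding gene with 50 kb to each side. Inside the genes and over 1 kb from an end, 13 of 66 were (19.7%), against 18.6%. Outside the genes by over 1 kb, 23 of 88 were (26.1%), against 32.6%. These shares are a description with no test, and in the counts over every gene a region near several genes counts once for each. The loci differ in size, and Itga9, the longest at chr9:118606709-118901003, held 48 of the 166 regions. Of the 166 regions, 24 lay inside another protein-coding gene and 12 within 1 kb of the end of one, so a region is assigned here to a locus by distance only.

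Signal strength was compared by rank. Each peak carries a fold enrichment over background, the authors' own value, and the 20810 regions called in all 6 libraries were ranked by it within each library, so that a percentile of 100 is the strongest and every library is ranked over the same regions. Of the 44 shared member regions, 14 had a higher mean percentile after tunicamycin and 30 a lower one, with a median difference of -2.82 points. Over all 20810 regions the median difference was -0.304, and 48.4% were positive. The differences at the 44 regions ran from -30.5 to 19.5. In 2 regions (4.55%) every tunicamycin library ranked above every DMSO library, against 4.66% of all shared regions, and in 3 (6.82%) every tunicamycin library ranked below, against 4.55%. With 3 libraries against 3, the two-sided exact permutation test used for single regions cannot give a p under 0.10, so no region could pass 0.05.

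The receptor genes for retention and egress come first. Cxcr4 (chr1:128588199-128592299) had 16 regions, of which the tunicamycin libraries 1, 2 and 3 called 8, 13 and 9 and the DMSO libraries 9, 6 and 5. The counts overlapped at 9. The region over the Cxcr4 start, chr1:128591925-128592786, covers the promoter printed above and was called in all 6 libraries at modest strength, with fold enrichments of 5.53, 5.37 and 4.77 after tunicamycin and 5.41, 5.75 and 5.01 after DMSO. Its percentiles were 20.2, 12.6 and 8.68 in the tunicamycin libraries and 8.43, 30.5 and 30.6 in the DMSO libraries. The DMSO values enclosed the tunicamycin values, DMSO 1 being the lowest of the 6. The means were 13.8 ± 5.86 and 23.2 ± 12.8 (SD, n = 3 each), a difference of -9.35 (exact permutation test, two-sided, p = 0.4).

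The strongest Cxcr4 region was chr1:128614530-128615751, 22.2 kb upstream of the gene. Its fold enrichments were 7.39, 7.66 and 7.21 after tunicamycin and 8.60, 7.65 and 6.08 after DMSO, and its percentiles were 47.7, 42.4 and 40.9 against 42.5, 60.6 and 53.0. DMSO 2 and DMSO 3 lay above all tunicamycin libraries, and DMSO 1 lay among them. The difference of the mean percentiles was -8.37 (exact permutation test, two-sided, p = 0.2). It was 0.0803 when this region was ranked in each own list and 1.89 when ranked by −log10 q. A further region 30.5 kb upstream, chr1:128622829-128623413, was called in all libraries except DMSO 3.

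Cxcr4 also held the single region of the 9 loci that was called in every tunicamycin library and in no DMSO library, chr1:128601352-128601739, 9.05 kb upstream. It made up 0.602% of the 166 regions, against 0.683% of all merged regions. Its fold enrichments were 4.89, 4.46 and 4.83 in the tunicamycin libraries 1, 2 and 3, which placed it at percentiles 38.4, 30.4 and 34.2 of those libraries' own peak lists. It was thus of below-median strength in each list that held it. When every list was limited to its 28501 most significant peaks, the length of the shortest list, the region was called in 1 tunicamycin library and in no DMSO library.

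**Figure D2:**
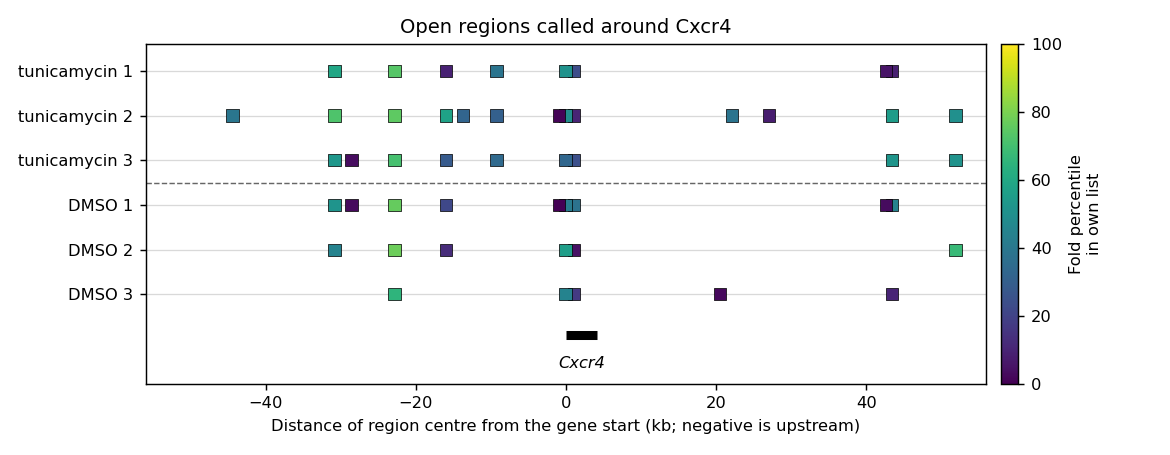
Called regions at the Cxcr4 locus by distance of their centre from the gene start (horizontal axis, kb, negative upstream), 1 row per library with tunicamycin libraries above DMSO libraries, coloured by percentile of fold enrichment in the own list; the bar is the gene. The region 9.05 kb outside the gene is drawn in the 3 tunicamycin rows and in no DMSO row, whereas the regions at the start and 22.2 kb away are drawn in all 6.

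S1pr1 (chr3:115710433-115715055), the egress receptor, had 20 regions, of which the tunicamycin libraries called 14, 10 and 10 and the DMSO libraries 15, 11 and 5. The region over one gene end, chr3:115714696-115715767, had fold enrichments of 5.13, 6.25 and 6.30 after tunicamycin and 5.76, 4.55 and 4.60 after DMSO. Its percentiles were 14.8, 23.1 and 27.9 against 11.2, 11.1 and 21.8, which overlapped through tunicamycin 1 and DMSO 3. The difference of means was 7.22 (exact permutation test, two-sided, p = 0.2). It was 18.1 when this region was ranked in each own list, where the groups still overlapped. Without DMSO 3 it was 14.3 and without tunicamycin 1 it was 11.1, and in both cases the groups did not overlap. The strongest region elsewhere at S1pr1, chr3:115682374-115683199, lay 27.2 kb outside the gene and differed by -4.02 (p = 0.7 by the same exact test).

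The alpha chain genes follow. Itga4 encodes the alpha chain of the VCAM1 and fibronectin receptor and spans chr2:79255426-79333114. It had only 6 regions, of which the tunicamycin libraries called 5, 5 and 5 and the DMSO libraries 5, 4 and 3. The region over the Itga4 start, chr2:79254628-79256149, was called in all 6 libraries with fold enrichments of 6.41, 6.19 and 6.19 after tunicamycin and 5.96, 5.75 and 5.63 after DMSO. Its percentiles were 33.1, 22.2 and 26.5 against 12.9, 30.4 and 45.2. By these percentiles the DMSO libraries lay on both sides of the tunicamycin libraries, and the means differed by -2.26 (exact permutation test, two-sided, p = 0.9). The fold enrichments themselves did not overlap. Ranked in each own list, the start region had percentiles of 63.6, 60.1 and 59.3 after tunicamycin and 49.3, 55.5 and 58.6 after DMSO. There the groups did not overlap and the sign changed, with a difference of 6.50 (exact permutation test, two-sided, p = 0.1, the smallest possible).

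The strongest Itga4 region, chr2:79227694-79228482, lay 26.9 kb upstream of the gene. Its fold enrichments were 9.84, 10.8 and 9.90 in the tunicamycin libraries and 10.9, 7.04 and 6.84 in the DMSO libraries. Its percentiles were 77.8, 79.5 and 75.4 after tunicamycin and 70.7, 51.6 and 64.8 after DMSO. Every tunicamycin library ranked above every DMSO library, with DMSO 1 the nearest. The means were 77.6 ± 2.03 and 62.4 ± 9.79 (SD, n = 3 each), a difference of 15.2 (exact permutation test, two-sided, p = 0.1, the smallest possible). Without DMSO 2 the difference was 9.39. The separation ended when the region was ranked among all peaks of each library's own list (difference 11.8, p = 0.2) or by −log10 q (8.58, p = 0.3, both by the exact permutation test).

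Itga5 encodes the alpha chain of the classical fibronectin receptor and spans chr15:103344286-103366791. It was the one member whose span, with 1 kb to each side, held no region called in all 6 libraries. The region over its start, chr15:103366444-103366840, was called in tunicamycin 2 and in DMSO 1, with fold enrichments of 3.81 and 3.47, and so was a neighbour inside the gene, chr15:103365452-103366123, with 4.19 and 3.80. Tunicamycin 2 and DMSO 1 are the libraries with the longest lists of their groups. Inside the gene, chr15:103347243-103347689 was called in every library except tunicamycin 1, and chr15:103358346-103358810 in the 3 DMSO libraries and tunicamycin 3. Of 15 regions in all, the tunicamycin libraries called 10, 10 and 10 and the DMSO libraries 14, 10 and 7. The strongest region at the locus, chr15:103305028-103305875, lay 38.4 kb beyond the gene, and its mean percentile differed by -10.3 (exact permutation test, two-sided, p = 0.4).

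A region at the end of the neighbouring gene Zfp385a, chr15:103339094-103340577, lay 3.71 kb from Itga5 and had percentiles of 14.8, 18.0 and 24.5 after tunicamycin and 24.9, 45.7 and 26.6 after DMSO. Every tunicamycin library ranked below every DMSO library, but tunicamycin 3 and DMSO 1 lay side by side. The difference of means was -13.3 (exact permutation test, two-sided, p = 0.1, the smallest possible). The groups overlapped when the region was ranked in each own list (-5.56), by −log10 q (-12.3) or without DMSO 3 (-17.0). Without DMSO 2 the difference was -6.74.

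Itga6 encodes the alpha chain of a laminin receptor and spans chr2:71786886-71858427. It had 17 regions, of which the tunicamycin libraries called 7, 12 and 11 and the DMSO libraries 13, 8 and 5. The region over one gene end, chr2:71786576-71787811, had percentiles of 9.89, 24.6 and 32.1 after tunicamycin and 37.5, 12.5 and 29.6 after DMSO. These groups overlapped, and the means differed by -4.29 (exact permutation test, two-sided, p = 0.6).

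Inside Itga6 lay 2 of the 3 regions that ranked lower in every tunicamycin library. At chr2:71843294-71843717 the fold enrichments were 6.11, 7.06 and 5.95 after tunicamycin and 9.71, 6.92 and 7.32 after DMSO, and the percentiles were 28.5, 34.2 and 23.0 against 56.5, 49.7 and 70.9. The fold enrichments overlapped, whereas the percentiles were separated, with DMSO 3 highest and tunicamycin 3 lowest. The means were 28.6 ± 5.57 and 59.1 ± 10.8 (SD, n = 3 each), and the difference of -30.5 was the largest in size among the 44 shared member regions (exact permutation test, two-sided, p = 0.1, the smallest possible). The groups also did not overlap when the region was ranked in each own list (-15.8) or by −log10 q (-27.0).

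At the other Itga6 region, chr2:71813906-71814515, singled out after its values were seen, the percentiles were 65.3, 46.7 and 70.8 after tunicamycin and 74.0, 81.9 and 83.4 after DMSO. The groups did not overlap, tunicamycin 3 and DMSO 1 being nearest, and the difference was -18.9 (exact permutation test, two-sided, p = 0.1). It was -6.94 when the region was ranked in each own list and -11.7 without tunicamycin 2. Other regions of the Itga6 locus did not separate the groups. The strongest, chr2:71872779-71873820, lay 14.4 kb outside Itga6 at the end of Pdk1 and had percentiles of 76.6, 69.7 and 83.7 against 67.0, 86.2 and 89.3.

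**Figure D3:**
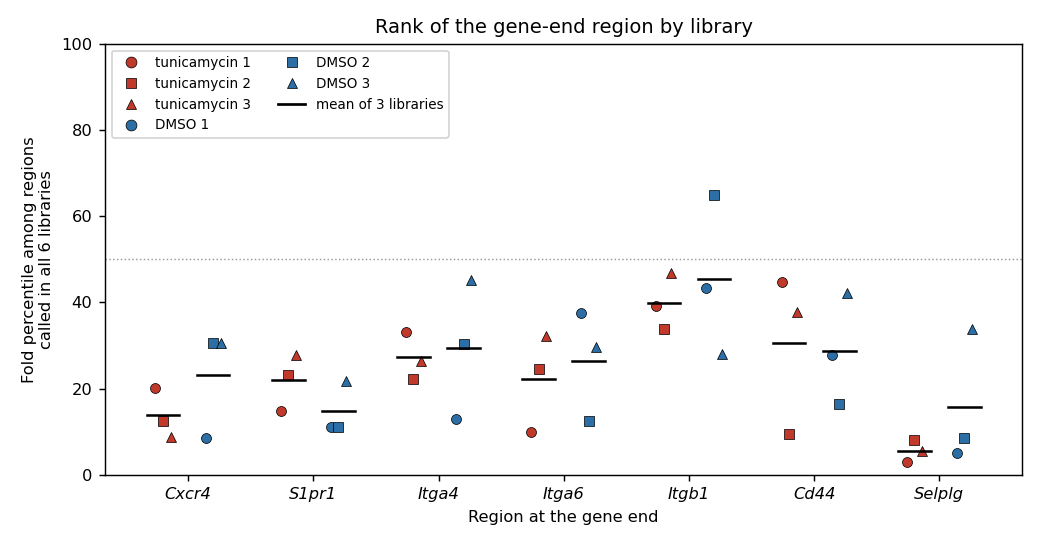
Percentile by fold enrichment among the 20810 regions called in all 6 libraries (vertical axis) of the region within 1 kb of a gene end with the highest mean rank, for the members where such a region was called in all 6 libraries. Points are libraries, bars are means and the dotted line marks 50, with tunicamycin left of DMSO; the groups overlap at every gene shown, and at Selplg all libraries except DMSO 3 lie under 10.

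Itga9 encodes the alpha chain of a receptor for tenascin and osteopontin. Its 48 regions were called 19, 31 and 21 times in the tunicamycin libraries and 40, 19 and 14 times in the DMSO libraries, and 9 of them in DMSO 1 alone. The region over the low-coordinate end of the gene span, chr9:118606320-118606772, was called in tunicamycin 2 and 3 and in DMSO 1, with fold enrichments of 5.80 and 3.52 after tunicamycin and 4.32 after DMSO. The RefSeq promoter table places its Itga9 start within the gene span, and the 250 bases before that start, chr9:118711442-118711691, overlapped none of the 48 regions.

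The nearest region called in all 6 libraries, chr9:118706152-118706963, was centred 5.13 kb upstream of that start. Its fold enrichments were 6.07, 7.19 and 6.62 after tunicamycin and 7.01, 4.58 and 4.13 after DMSO. Its percentiles were 28.0, 36.1 and 32.6 against 23.4, 11.5 and 11.1. Every tunicamycin library ranked above every DMSO library, and DMSO 1 was again the nearest. The means were 32.2 ± 4.07 and 15.3 ± 7.003 (SD, n = 3 each), a difference of 16.9 (exact permutation test, two-sided, p = 0.1, the smallest possible). The groups overlapped when the region was ranked in each own list (27.5) or by −log10 q (7.91). The strongest Itga9 region, chr9:118726382-118727002, had percentiles of 40.5, 89.8 and 68.9 against 63.4, 68.0 and 30.8, a spread within each group wider than the difference of means of 12.3 (p = 0.5 by the exact permutation test).

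**Figure D4:**
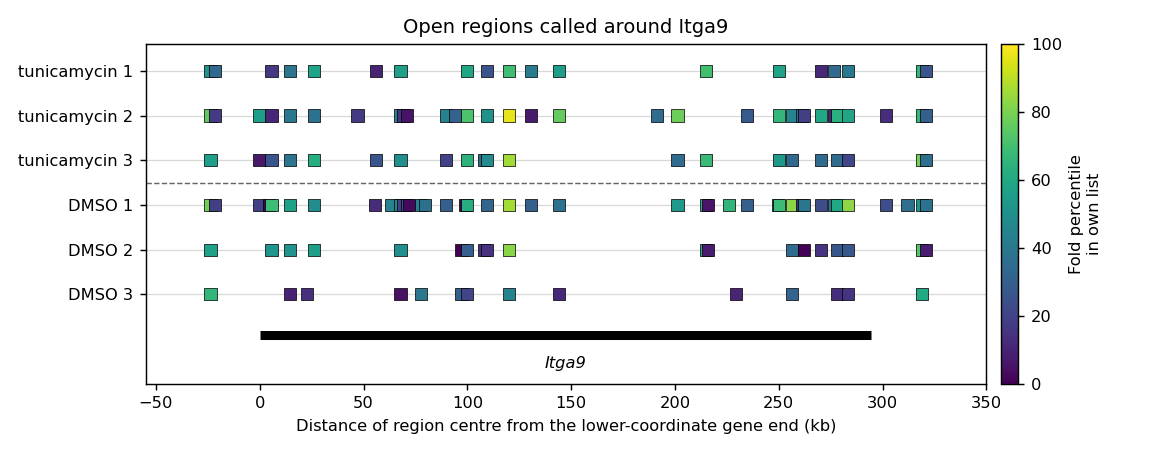
Called regions at the Itga9 locus by distance of their centre from the low-coordinate end of the gene span (horizontal axis, kb), 1 row per library with tunicamycin libraries above DMSO libraries, coloured by percentile of fold enrichment in the own list; the bar is the gene. The DMSO 1 row is the fullest with 40 regions, and 7 of the 48 regions are called in every row.

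Itgb1 encodes the beta chain common to these receptors and spans chr8:128685654-128733579. It had 6 regions, of which the tunicamycin libraries called 5, 4 and 4 and the DMSO libraries 5, 2 and 2. The region over the start, chr8:128685066-128686477, contains the whole printed promoter. Its fold enrichments were 6.81, 7.03 and 7.62 after tunicamycin and 8.66, 7.98 and 4.86 after DMSO, with percentiles of 39.1, 33.8 and 46.8 against 43.3, 65.1 and 27.9. DMSO 2 was the highest and DMSO 3 the lowest of the 6, and the means differed by -5.51 (exact permutation test, two-sided, p = 0.8). The other shared region, chr8:128654395-128655189, lay 30.5 kb upstream and ranked higher than the start in every library except DMSO 2, at 62.4, 66.8 and 70.8 after tunicamycin and 51.8, 57.6 and 80.9 after DMSO.

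Among the remaining homing receptors, Cd44 (chr2:102811141-102901669) had the largest share of regions called in all 6 libraries of the 9 loci together with Itga4, at 7 of 14 regions and 3 of 6. The tunicamycin libraries called 12, 11 and 13 of its regions and the DMSO libraries 11, 10 and 8, so the counts met at 11. The region over the start, chr2:102901163-102901781, had fold enrichments of 7.19, 5.05 and 6.997 after tunicamycin and 7.39, 4.91 and 5.51 after DMSO. Its percentiles were 44.8, 9.45 and 37.8 against 27.8, 16.4 and 42.2. Each group held both a low and a high library, and the means differed by 1.87 (exact permutation test, two-sided, p = 0.9). The summits of this region lay within 44 bp of each other, from 107 to 151 bases past the start, so they fell outside the sequence printed above.

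The strongest Cd44 region lay 42.3 kb upstream, at chr2:102943949-102944535, with percentiles of 62.0, 59.8 and 53.1 after tunicamycin and 40.5, 72.9 and 69.8 after DMSO. The DMSO libraries enclosed the tunicamycin libraries. The largest positive difference among all 44 shared regions, 19.5, was at chr2:102812656-102813103 near the far end of Cd44, singled out after its values were seen. Its percentiles were 7.15, 41.4 and 42.9 against 5.21, 26.0 and 1.55, so the groups overlapped through tunicamycin 1 and DMSO 2 (exact permutation test, two-sided, p = 0.2).

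Selplg (chr5:113817798-113832528) lies among other genes, and 13 of its 24 regions were inside one of them. The tunicamycin libraries called 16, 19 and 16 and the DMSO libraries 20, 12 and 10. The region over one gene end, chr5:113832426-113833068, had fold enrichments of 3.91, 4.93 and 4.39 after tunicamycin and 4.90, 4.35 and 5.12 after DMSO. Its percentiles were 2.98, 8.09 and 5.53 against 5.12, 8.44 and 33.9. All libraries except DMSO 3 ranked it among the weakest shared regions, and the means differed by -10.3 (exact permutation test, two-sided, p = 0.4). The strongest Selplg region, chr5:113786962-113787413, lay 30.4 kb outside and was called in every library except DMSO 3, with fold enrichments of 8.16, 9.30 and 8.06 after tunicamycin and 11.9 and 9.05 in DMSO 1 and 2.

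Selplg held the single region called in every DMSO library and in no tunicamycin library, chr5:113773754-113774008, 43.8 kb from the gene and inside Iscu, which encodes an iron-sulfur cluster scaffold protein. It made up 0.602% of the 166 regions, against 0.0976% of all merged regions. Its fold enrichments were 2.85, 3.71 and 3.17 in DMSO 1, 2 and 3, at percentiles 0.827, 8.59 and 1.59 of those lists. By fold enrichment it was thus among the weakest peaks of each. With peaks limited to a q-value of at most 1e-05, or with lists of one length, it was called in 2 DMSO libraries and in no tunicamycin library.

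The counts of regions that separate the groups moved with single libraries, and so did the shares over all regions, since fewer libraries then have to separate. Without DMSO 1, 11 member regions (7.19%) were called in every remaining tunicamycin library and in no remaining DMSO library, against 5.77% of all merged regions. Without tunicamycin 2 there were 3 (1.92%, against 1.19%), and without tunicamycin 3 there were 4 (2.41%, against 1.54%). There was 1 without tunicamycin 1 (0.617%, against 2.23%), 1 without DMSO 2 (0.610%, against 0.956%) and 1 without DMSO 3 (0.617%, against 0.821%). The opposite pattern was found in 2 regions without tunicamycin 3 (1.20%, against 0.156%), 3 without DMSO 1 (1.96%, against 0.561%), 2 without DMSO 2 (1.22%, against 0.343%) and 3 without DMSO 3 (1.85%, against 0.929%). Regions ranked higher in every tunicamycin library numbered 5 without tunicamycin 1 (10.6% of the shared regions, against 9.04%) and 7 without DMSO 3 (11.9%, against 10.3%). Such regions numbered 2 each without tunicamycin 2 and 3 (4.55% each, against 8.60% and 8.50%). They numbered 3 each without DMSO 1 and 2 (6.82% and 6.52%, against 12.4% and 9.02%). Those ranked lower numbered 6, 5 and 5 without tunicamycin 1, 2 and 3 (12.8%, 11.4% and 11.4%, against 8.71%, 8.18% and 7.97%). They numbered 11, 6 and 9 without DMSO 1, 2 and 3 (25.0%, 13.0% and 15.3%, against 16.3%, 8.46% and 9.46%).

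**Figure D5:**
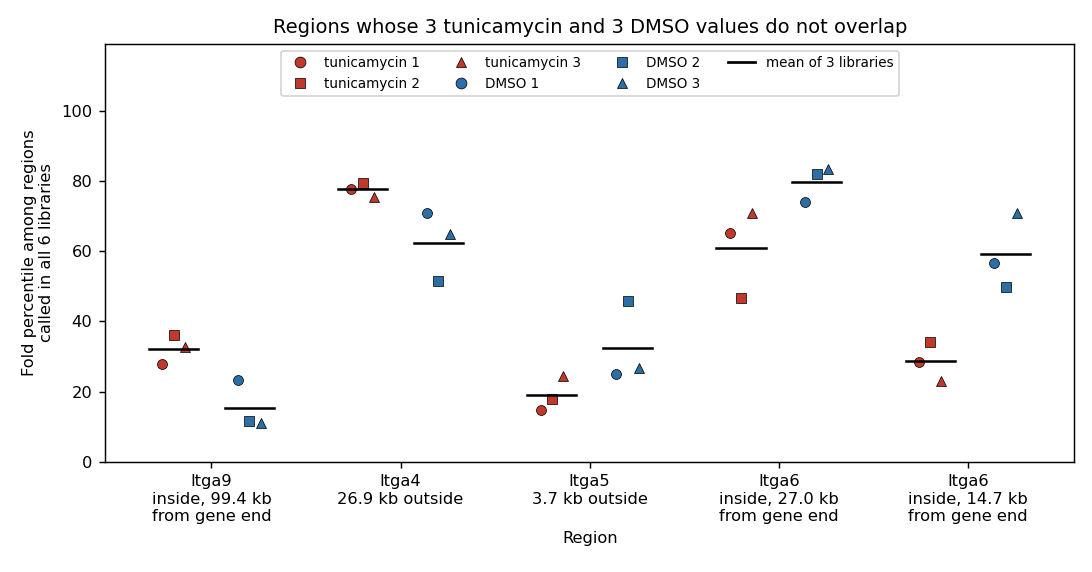
Percentile among the 20810 regions called in all 6 libraries (vertical axis) of the 5 member regions whose libraries did not overlap between groups, 1 point per library, tunicamycin left of DMSO. The regions at Itga4 and Itga9 lie higher after tunicamycin and those at Itga5 and Itga6 lie lower, with the widest gap at the Itga6 region whose means are 28.6 and 59.1.

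The wider adhesion and homing machinery was read the same way over 88 genes in 6 lists. A region called in all 6 libraries lay inside or within 1 kb of 63 of the 88 (71.6%), against 54.4% of protein-coding genes, and at 8 of the 9 receptor genes. It was highest for integrin activation and cytoskeleton, at 14 of 16, and for other integrins and their partners, at 13 of 15. Apbb1ip, whose product links RAP1 to talin, had 5 such regions, Fermt3, which encodes the integrin activator kindlin-3, had 2, and Cd47, an integrin-associated surface protein, had 3. The share was 9 of 13 for selectins, sialomucins and enzymes that build selectin ligands, 11 of 17 for chemokine and egress receptors, 9 of 15 for junctional and immunoglobulin-type adhesion, and 7 of 12 for niche ligands and their receptors.

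A region called in every tunicamycin library and in no DMSO library lay within 50 kb of 7 of the 88 genes (7.95%), against 4.88% of protein-coding genes. The opposite pattern was found at 0 of the 88, against 0.608%. The 7 genes were Itgb2, a leukocyte integrin beta chain, Rap1a, a small GTPase that activates integrins, the sphingosine-1-phosphate receptor S1pr4, the nucleotide-sugar receptor P2ry14, the prostaglandin receptor Ptger4, Fut7, a fucosyltransferase that builds selectin ligands, and the adhesion molecule Alcam. S1pr4 had 2 such regions, 14.7 and 38.5 kb away. In the own lists of tunicamycin 1, 2 and 3 the nearer lay at percentiles 32.3, 3.87 and 11.3. The farther lay at 16.7, 36.4 and 15.0. The Itgb2 region lay inside the gene at chr10:77531719-77532201, with fold enrichments of 4.13, 3.36 and 3.12 in the tunicamycin libraries. These placed it at percentiles 19.3, 5.10 and 2.09 of their own lists, so it was a weak peak by fold enrichment in each. The Fut7 region, chr2:25383295-25383673 and 38.7 kb away, had the highest single value, with 4.44, 6.23 and 8.34 (own-list percentiles 27.7, 60.9 and 79.9). Gene length and neighbouring genes affect how many regions fall within 50 kb, and their part in these shares was not tested.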

How the data were processed

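ATAC-seq peak lists of 6 libraries, 3 from tunicamycin-treated and 3 from DMSO-treated mice, were used, with groups taken from the treatment label. Build mm10 and the tools MACS2, featureCounts, Picard, Bowtie2 2.2.9 and Trim Galore 0.4.4 are named in the submitters' processing notes. Not given in the sources used here are their roles and settings, the filters on reads, the threshold for calling and any transposase offset applied to read ends. There was 1 list per library, so peaks were not called on pooled libraries. For each peak the authors deposited its position and summit offset, its fold enrichment, which is a ratio to local background, a −log10 q-value, a −log10 p-value and a display score. The largest q-values of the lists were 0.0482 to 0.04999. The display score and the −log10 p-value were not used for any result.

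Peaks of the autosomes, X and Y were merged at an overlap of at least 1 bp, and the merge was checked with bedtools 2.31.1. Gene spans came from a RefSeq table of GRCm38.p6, the assembly that mm10 denotes, without exons or strand, so exonic and intronic positions are not separated; strand was known for the 6 genes in the promoter table. A region counted as called in a library with at least 1 peak there, and its value was the highest fold enrichment. Single regions were tested with an exact permutation test over the 6 libraries, two-sided (Python 3.11.15). Its p-values were compared with those of SciPy 1.17.1 on random numbers, and the rule for non-overlapping groups was run on simulated data. No test was made over the list, whose counts stand beside those over all regions. Named for each gene were the strongest region within 1 kb of a gene end, the strongest other region, any region called in 3 of one group and 0 of the other, and the non-overlapping shared region with the largest difference in each direction. The 9 genes, the 88 pathway genes, the markers, the motifs and the tests were chosen with earlier results of these data known. Precision is limited by 3 libraries per group and by the unknown depth.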

Additional observations from a re-analysis of the deposited data

How the results depend on the processing

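The count of regions called in every tunicamycin library and no DMSO library was 1 under every alternative that kept all 6 libraries, and 1 to 11 when single libraries were left out. With lists of one length a different region, chr2:71812787-71813232 in Itga6, met the criterion in place of the Cxcr4 region. The opposite count, 1, was 0 with q-values of at most 1e-05 and 0 with a window of 10 kb, and 1 to 3 when single libraries were left out; with lists of one length it too was a different region, chr9:118862897-118863326 in Itga9. The 44 of 166 regions called in all 6 libraries (26.5%) became 25 of 94 with a window of 10 kb (26.6%) and 60 of 231 with a window of 100 kb (26.0%). The share of all merged regions was 25.1% with each window. The count became 34 of 144 with q-values of at most 1e-05 (23.6%, against 27.4% of all merged regions). It became 33 of 103 with lists of one length (32.0%, against 37.9%). It was 34 of 166 when peaks had to cover 50% of the region (20.5%, against 14.7%). With 250 bp to each side of summits it was 42 of 162 (25.9%, against 24.8%). When single libraries were left out it was 44 to 59 (26.5% to 36.4%, against 26.2% to 34.3%). The 2 regions ranked higher became 1 when peaks had to cover 50% of the region (2.94%, against 4.62% of all shared regions). They became 1 with a window of 10 kb (4.00%, against 4.66%). When ranked in each own list the count was also 1 (2.27%, against 7.42%). That was a different region, the one over the Itga4 start. Ranked by −log10 q the count was 0 (0%, against 5.48%), and it was 2 to 7 when single libraries were left out. The count stayed 2 with q-values of at most 1e-05 (5.88%, against 4.61%) and with lists of one length (6.06%, against 4.42%). The same held with 250 bp to each side of summits (4.76%, against 4.62%) and a window of 100 kb (3.33%, against 4.66%). The 3 ranked lower became 5 to 11 when single libraries were left out and 2 to 4 otherwise. Ranked in each own list they were 2, the Itga6 regions (4.55%, against 1.59%). By −log10 q the count was 4 (9.09%, against 5.20%). These 4 held both Itga6 regions but not the Itga5 region, so others joined them. With all 6 libraries kept, the share ranked lower under the alternatives was 4.55% to 12.0%, against 1.59% to 5.20%. Leaving out a library also eases the criterion, since fewer libraries must separate. The difference in calls per library was -3.67 to 33.8 when single libraries were left out and 2.00 with lists of one length.

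Among 19 of the regions described singly, in 171 combinations with an alternative, the sign of the difference changed in 23, and 10 regions never changed sign. The replicate block, described next, was among these alternatives and kept the same differences, so it could not change a sign. Taking same-numbered libraries as pairs (a replicate block) left the difference in calls at 12.3, and 0.25 is the smallest p its exact sign-flip test allows; deviations of same-numbered libraries correlated at -0.0962, -0.0213 and 0.0245, so the numbers were not used as pairs.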

Other observations

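Summit positions and own-list ranks of the shared regions at the adhesion and homing loci are given here as values, with no test. Among the 44 regions called in all 6 libraries, the median distance between the outermost summits was 117.5 bp, against 70 bp over all 20810 such regions, and 19 of the 44 (43.2%) had all summits within 100 bp, against 66.9%. The median width was 673 bp, against 775 bp. The start regions differed among themselves: the Cd44 start had summits within 44 bp, the Itgb1 start within 209 bp, the Cxcr4 start within 358 bp and the Itga4 start within 528 bp. The median percentile of the 44 regions in the own list was 59.4, 66.5 and 60.0 in the tunicamycin libraries 1, 2 and 3, against 75.1, 79.4 and 76.1 for all shared regions, and 70.7, 56.8 and 43.3 in the DMSO libraries, against 80.3, 71.0 and 62.5. The relation of strength to summit spread was not tested.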
